A study of Mus musculus with 2 samples.

Results

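The Ikaros family comprises 5 zinc finger genes, Ikzf1 (Ikaros), Ikzf2 (Helios), Ikzf3 (Aiolos), Ikzf4 (Eos) and Ikzf5 (Pegasus), and their accessible chromatin was examined in mouse CD8+ T cells. The members are all ATAC-seq peaks that touch the span of 1 of these genes or the 50 kb on either side of it. They number 83 of 85137 peaks in the control library and 74 of 64910 in the treatment library. ATAC-seq uses a transposase that inserts sequencing adapters into open DNA, so a peak marks an accessible stretch. The series has 2 libraries of CD8+ T cells, and its title spells them Peml-1. The titles call 1 library control and the other treatment. A second label field reads "Treatment" for the control library and "Combined treatment" for the other, the genotype field names no genotype, and no strain, age or agent is given for either library. The names in the titles are used below. There was no replicate of either, so no difference has been checked against the spread between animals or cultures, and the comparisons are of 2 libraries.

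Ikaros, Helios, Aiolos and Eos bind DNA through zinc fingers near the amino terminus, at sites with the core GGGAA, and pair with each other through fingers at the carboxyl terminus. They recruit the NuRD complex, which joins nucleosome remodelling to histone deacetylation, and can repress or sustain transcription at lymphoid genes. Ikaros and Aiolos are chiefly lymphoid, Helios and Eos are best known in regulatory T cells, and Pegasus is the most divergent and is found in many tissues. In CD8+ T cells, Ikaros is known to restrain effector cytokine genes and Helios marks some innate-like and chronically stimulated cells.

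Promoter sequences were taken from RefSeq on GRCm38.p6, the assembly of mm10, from 250 bases before to 50 after an annotated start. Of the 5 genes 2 matched, with 2 starts for Ikzf1 and 1 for Ikzf5. These are all the promoter sequences available for the members, and each overlapped 1 peak in each library that was strong in both. Capitals mark GGGAA or its reverse complement TTCCC, the core named above for Ikaros, Helios, Aiolos and Eos.
Ikzf1 first start, chr11:11685675-11685974, plus strand: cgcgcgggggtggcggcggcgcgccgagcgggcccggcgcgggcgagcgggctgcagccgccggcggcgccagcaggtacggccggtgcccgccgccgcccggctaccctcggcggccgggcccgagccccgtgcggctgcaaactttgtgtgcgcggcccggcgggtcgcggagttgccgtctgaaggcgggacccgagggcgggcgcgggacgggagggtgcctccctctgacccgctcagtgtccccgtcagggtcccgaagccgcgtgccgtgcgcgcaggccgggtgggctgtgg
Ikzf1 second start, chr11:11689927-11690226, plus strand: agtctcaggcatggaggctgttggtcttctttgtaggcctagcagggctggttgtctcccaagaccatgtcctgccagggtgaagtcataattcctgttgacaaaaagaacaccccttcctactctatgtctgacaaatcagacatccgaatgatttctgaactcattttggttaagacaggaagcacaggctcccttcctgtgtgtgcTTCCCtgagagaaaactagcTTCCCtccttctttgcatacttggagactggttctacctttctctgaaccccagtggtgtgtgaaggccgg
Ikzf5 start, chr7:131410429-131410728, minus strand: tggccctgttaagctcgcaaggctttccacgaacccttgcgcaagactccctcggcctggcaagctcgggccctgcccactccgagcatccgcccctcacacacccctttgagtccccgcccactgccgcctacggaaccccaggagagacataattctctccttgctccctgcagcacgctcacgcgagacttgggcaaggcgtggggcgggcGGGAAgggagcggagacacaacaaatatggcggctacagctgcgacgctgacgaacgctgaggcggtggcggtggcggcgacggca
The first Ikzf1 promoter held 52 CpG and 81.3% G or C, and 99.3% of the promoters in the table had a lower G and C content. The second held 2 CpG and 49% G or C, and the Ikzf5 promoter 27 CpG and 65.7%. The core was found at 0, 2 and 1 positions in these promoters, and 62.7% of all 32851 promoters held it on either strand. The longer form TGGGAA, which contains the core, was in none of the promoters of these genes and in 25.6% of all promoters. The core alone was added to the search after the sequences had been seen. These are matches of letters in this window and do not show binding.

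Summit coverage, the number of reads piled up at the highest point of a peak, was recovered from each deposited fold enrichment and p-value. The lowest local background per base of the narrowest peak was 1.006 times as high in treatment as in control, so both libraries had about the same depth by this measure, if the caller ran alike on both. The lowest local background itself was 14.15 reads in control and 15.05 in treatment, with narrowest peaks of 176 and 186 bp. Summit coverages were not scaled for this difference, so ratios close to 1 cannot be told from equality. Coverage was nonetheless lower in treatment over the genome: at 59860 pairs of overlapping peaks the median log2 ratio of treatment to control was −0.50, and at the 12790 pairs at gene ends −0.27. A gene end here is the 1 kb on either side of an end of a gene span. Gene-end peaks were present at 7 of 7 CD8 T cell markers in each library and at 6 of 7 markers of CD4 and regulatory T cells. They were present at 3 of 5 B cell markers and 1 of 5 NK cell markers in each library, at 5 of 5 myeloid markers in control and 3 of 5 in treatment, and at 3 and 2 of 5 neuron and liver genes. Foxp3, Pax5, Ms4a1, Klrb1c and Ncr1 had none in either library. Those with a gene-end peak in at least 1 library included Cd4, Zbtb7b, Cd79a, Cd79b, Ebf1 and Tyrobp. Spi1, Csf1r, Lyz2, Itgam, Cd14, Gad1, Syt1 and Apoa1 were also among them. The part of other cell types in the results below was not tested.

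Most accessible sites of the Ikaros family windows were found in both libraries, but the sites of Ikzf3 differed in strength more than those of the other members. Within Ikzf3, a site with 107 reads in control had 647 in treatment, and another had 131 and 371, while a site at the low-coordinate end of the gene had 983 and 482. Local background differed in the same direction at each of these sites, 14.2 and 42.9, 14.2 and 24.2, and 112 and 65.7 reads. Ikzf1 held the most peaks, 32 in control and 29 in treatment, and each of the treatment peaks overlapped a control peak. Ikzf2 had 16 and 11 peaks, and that difference in number was 0 with lists of equal length. Of its 5 control-only peaks 4 had under 100 reads, where 69.5% of all control peaks were unshared. The Ikzf5 window had the same 3 sites in each library, 1 at Ikzf5 and 2 at neighbouring genes. Their coverage ratios ranged from 0.872 to 1.01, and the site at Ikzf5 had 1453 reads in each library. In bulk libraries such as these, more cells open at a site and more open copies per cell cannot be told apart.

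Of the 83 control peaks, 71 overlapped a treatment peak and 12 did not, which is 14.5% (95% Wilson interval 8.47 to 23.6%), against 29.2% of all control peaks. Of the 74 treatment peaks 3 had no control peak, 4.05% (1.39 to 11.3%), against 6.8% of all treatment peaks. The intervals cover counting error only. By gene, control and treatment peaks numbered 32 and 29 at Ikzf1, 16 and 11 at Ikzf2, 17 and 17 at Ikzf3, 15 and 14 at Ikzf4, and 3 and 3 at Ikzf5. So 3 genes had fewer peaks in treatment, 2 had as many and 0 had more. Among the 18726 protein-coding genes with a peak in a window drawn the same way, 77.9% had fewer, 15.9% as many and 6.22% more. The ratio of treatment to control peaks was 0.892 for the family and 0.762 for the whole lists. These directions depend on the length of the lists: with the control list reduced to the length of the treatment list, the family had 70 control and 74 treatment peaks, a ratio of 1.06, and 0 genes had fewer, 3 as many (Ikzf2, Ikzf4 and Ikzf5) and 2 more (Ikzf1 and Ikzf3).

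**Figure D1:**
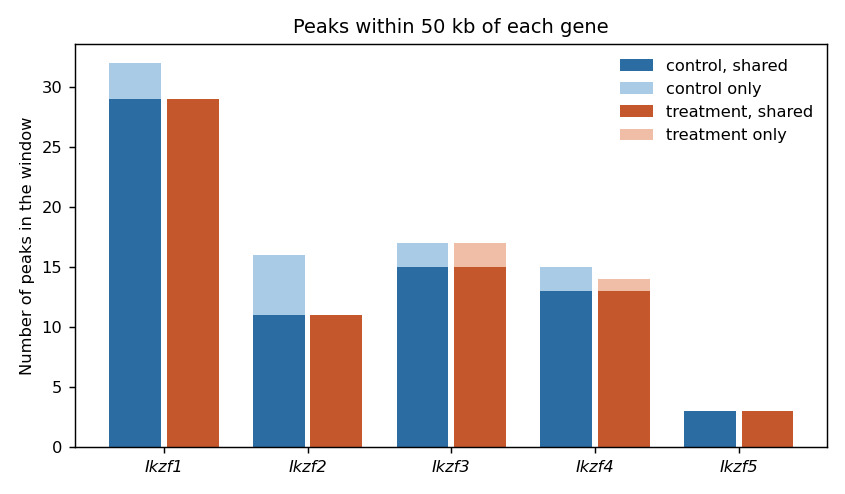
Number of peaks (vertical axis) within 50 kb of each Ikaros family gene in the control library (blue) and the treatment library (orange), split into peaks that overlap a peak of the other library (dark) and peaks that do not (pale). Ikzf2 has the most control-only peaks, 5 of 16, where 29.2% of all control peaks had no overlap. Ikzf3 has the most treatment-only peaks, 2 of 17, where 6.8% of all treatment peaks had no overlap.

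The family's peaks were stronger than most, with a median summit coverage of 431 reads in control and 422 in treatment, against 220 and 189 over all peaks. Strong peaks were mostly shared in the whole lists, so the family's share was set beside peaks of like strength. Of the 10 family control peaks under 100 reads 4 were shared, against 30.5% of all such control peaks. From 100 to under 300 reads 16 of 20 were shared, against 69.6%. From 300 to under 1000 reads it was 33 of 35, against 94.8%, and from 1000 reads upward 18 of 18, against 99.97%. Within classes of strength the family was therefore close to all peaks, at the counts available.

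**Figure D2:**
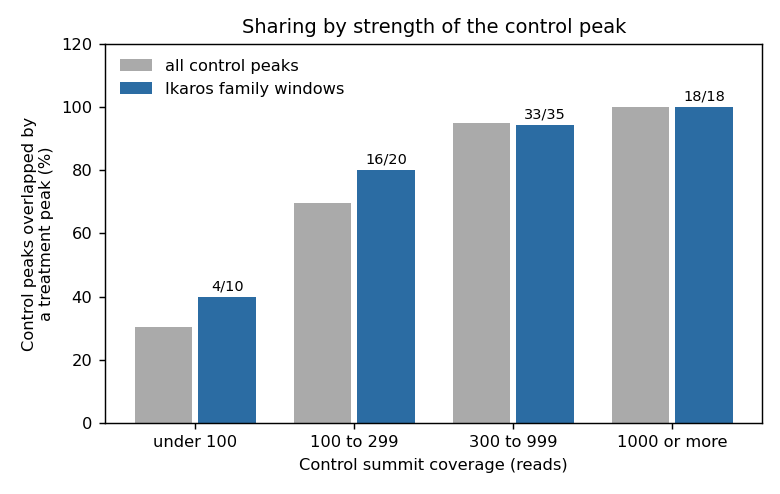
Percent of control peaks that overlap a treatment peak (vertical axis) in 4 classes of control summit coverage in reads (horizontal axis), for all control peaks (grey) and for the Ikaros family windows (blue), with the family's counts above its bars. The share climbs with strength in each set, from 30.5% to 99.97% for all peaks and from 4 of 10 to 18 of 18 for the family.

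Ikzf1 encodes Ikaros, the founding member, which lymphocytes need for their development. Its span is chromosome 11, 11684962 to 11772930 (mm10), and its window of 187969 bp included Fignl1 and part of Ddc. It held many peaks: of the gene windows with a peak, 99.0% had fewer control peaks and 99.4% had fewer treatment peaks. These are ranks of counts, and windows of longer genes are longer. Within the span and at its ends lay 22 control and 19 treatment peaks. The local background, the coverage expected from the surroundings, reached 296 reads in control and 309 in treatment there, above that of 99.6% and 99.8% of all peaks. The fold enrichments of these peaks were therefore small beside their coverage, down to 1.80 in control.

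The promoter of the first Ikzf1 start, printed above, had 1304 reads in control and 1387 in treatment, with summits at 1 and 6 bp from the start site. The ratio of treatment to control was 1.06 (95% counting interval 0.985 to 1.15). At the second start the peak had 1468 and 1251 reads, a ratio of 0.852 (0.790 to 0.920). Its summit lay 49 bp before the start in control and 207 bp after it in treatment, so the control summit fell inside the printed sequence and the treatment summit outside it. The intervals for ratios are exact binomial ones that take the depths as equal, and cover the counting of reads alone. They do not allow for the difference in lowest background between the libraries.

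The strongest site of Ikzf1 lay in the gene body at 11726221, with 1710 reads in control and 2035 in treatment. The ratio was 1.19 (1.12 to 1.27), and the summit was on the same base in each library. A cluster nearer the high end, at 11740700, 11741803 and 11742901, had 319 and 392, 765 and 779, and 277 and 282 reads. The first of these had the highest ratio in the Ikzf1 window, 1.23 (1.06 to 1.43). These sites had about as many reads or more in treatment, where the typical shared peak of the genome had fewer.

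Other Ikzf1 sites were weaker in treatment. The site 44035 bp before the low end, at 11640927, had the highest fold enrichment of the window in control, 25.8, and 424 reads against 140 in treatment. Its ratio of 0.330 (0.271 to 0.401) was the lowest at Ikzf1. In the gene body, the site at 11716165 had 843 and 393 reads, a ratio of 0.466 (0.413 to 0.526), and the site at 11763584 had 822 and 379, a ratio of 0.461 (0.407 to 0.521). These 3 of 29 pairs were at 0.5 times the control or less, against 21.4% of all pairs. At 11657331, 27631 bp before the low end, 1067 and 763 reads were found. The widest peak, 3209 bp in control and 2866 bp in treatment, began just beyond the high end of the gene, at 11774273 and 11774458, and had 253 and 158 reads.

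The 3 control-only peaks of Ikzf1 lay in the gene body at 11765589, 11700649 and 11724620, with 315, 168 and 396 reads and fold enrichments of 3.22, 2.09 and 1.995. A treatment peak lay within 1 kb of each, at 362, 952 and 548 bp. The coverages of those neighbouring treatment peaks were 890, 266 and 2035 reads. No Ikzf1 peak was found in treatment only. At 11788846, 15916 bp beyond the high end, 655 and 496 reads were found. The end of Fignl1, an ATPase of DNA repair, had 1674 and 1481 reads, and the site in the body of Ddc, an amino acid decarboxylase, had 596 and 370.

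Ikzf3 encodes Aiolos, which is expressed as lymphocytes mature. Its span is chromosome 11, 98464610 to 98546031, and its window touched Erbb2, Mien1, Grb7, Zpbp2 and Ormdl3. Peak numbers were equal, 17 in each library, with 15 shared, 2 in control only and 2 in treatment only. All 4 single-library peaks lay in the Ikzf3 span.

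The site with summits at 98487955 in control and 98487737 in treatment stood out. Its coverage was 107 reads in control against 647 in treatment, 6.05 times as high (4.92 to 7.49), and fold enrichments of 7.13 and 14.8. Of all 59860 pairs in the genome 6 had a higher ratio. The summits were 218 bp apart, and the local background was also higher in treatment, 42.9 against 14.2 reads. With summits required to lie within 150 bp, these peaks would not form a pair.

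Further sites in the Ikzf3 body were higher in treatment as well. The site at 98527243 had 131 and 371 reads, a ratio of 2.83 (2.31 to 3.48), exceeded by 146 pairs of the genome. The site at 98493163 had 328 and 645 reads, a ratio of 1.97 (1.72 to 2.25), exceeded by 580 pairs, and its summit was on the same base in each library. Between this site and the next, a treatment-only peak of 188 bp at 98495362 had 231 reads and a fold enrichment of 3.76, and the nearest control peak was 1576 bp away. Together with the first site these lie between 23345 and 62633 bp from the low end of Ikzf3. Over all pairs 0.917% were at 2 times the control or more, and Ikzf3 had 2 of its 15.

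Other Ikzf3 sites were lower in treatment. At the low end of the span the peak from 98463712 to 98464886 in control had 983 reads, and 482 in treatment, a ratio of 0.490 (0.439 to 0.547), with summits 528 bp apart. At 98510250 the reads were 246 and 115, a ratio of 0.467 (0.371 to 0.586), and at 98513080 they were 527 and 288, a ratio of 0.546 (0.472 to 0.632). A control-only peak of 785 bp at 98472353 had 266 reads, a fold enrichment of 5.58, and the nearest treatment peak was 1268 bp away. The site at 98497511, close to the raised ones, had 593 and 481 reads. So sites higher and lower in treatment were interspersed along the gene body.

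The peak at the high end of the Ikzf3 span, at 98545927, differed little, with 839 and 748 reads and a ratio of 0.892 (0.807 to 0.985). The remaining single-library peaks were weak and close together: a treatment-only peak at 98477406 with 56 reads and a control-only peak at 98477830 with 35, separated by 178 bp. Sites at the neighbouring genes were strong in each library. The end of Zpbp2, a sperm protein gene, had 1783 and 1811 reads and the widest peaks of the window, 1678 and 1621 bp. The end of Mien1 had 1645 and 1673, the body of Mien1 1526 and 1253 with the highest fold enrichments of the window, 24.8 and 22.0, and the end of Ormdl3, a regulator of sphingolipid synthesis, 1150 and 991.

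**Figure D3:**
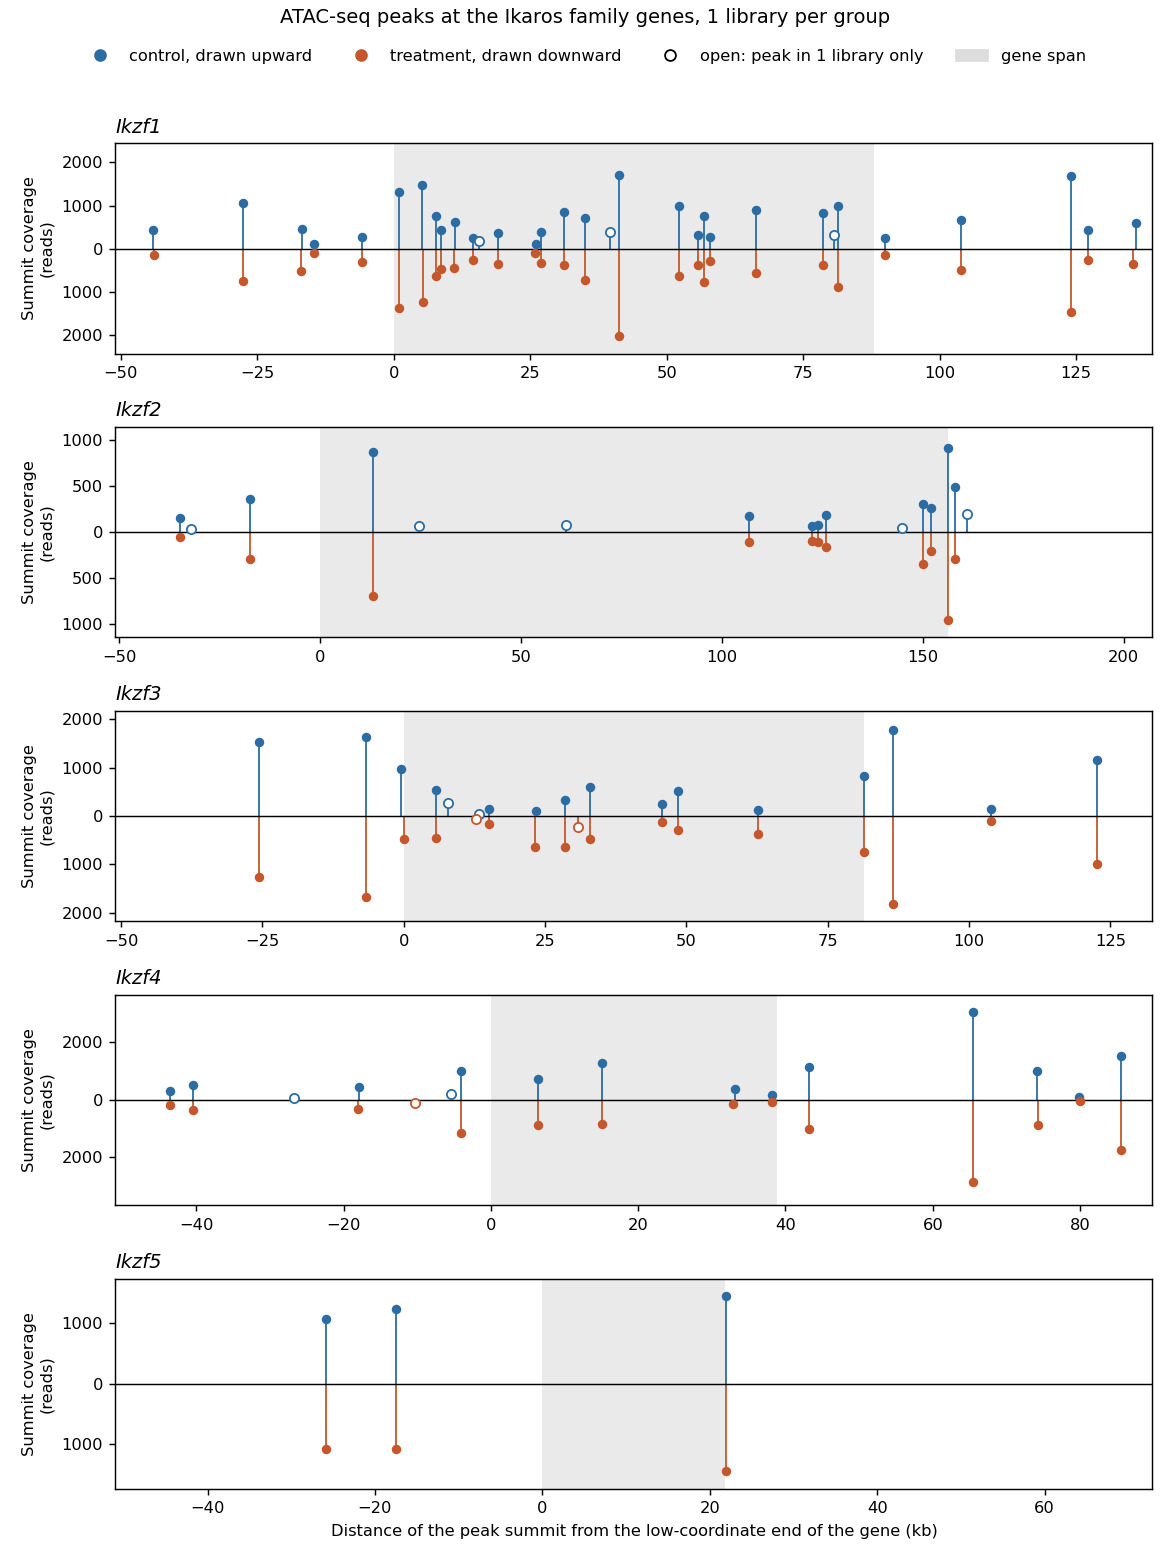
Summit coverage in reads (vertical axis, control upward in blue and treatment downward in orange, a linear scale set per gene) against the distance of the summit from the low-coordinate end of each gene in kb (horizontal axis). Filled points are shared peaks, open points peaks of 1 library, and grey the gene span. In Ikzf3 the orange stems at 23127 and 28553 bp are longer than the blue ones at 23345 and 28553 bp, 647 against 107 and 645 against 328 reads.

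The spread of ratios set Ikzf3 apart from most gene windows. The SD of its log2 ratios over 15 pairs was 0.98, and the range 3.69. Among the 6298 windows with at least 10 pairs, 99.5% had a smaller SD and the median SD was 0.49. The SD was 0.46 at Ikzf1, 0.56 at Ikzf2 and 0.53 at Ikzf4, near that median. At least 2 pairs at 2 times the control or more were found in 1.3% of these windows, and at least 1 such pair in 8.32%. The Ikzf3 SD includes pairs with summits 218 bp apart (107 and 647 reads) and 528 bp apart (983 and 482 reads). With summits required to lie within 150 bp, neither would be a pair, and the SD under that rule was not computed. The pair of 131 and 371 reads would remain at 2 times the control or more. Windows of neighbouring genes overlap and share peaks, so these percentages describe the windows and are no test, and this measure was chosen after the Ikzf3 values had been seen.

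Ikzf2 encodes Helios, a marker of regulatory T cells and of some innate-like CD8+ cells. Its span is chromosome 1, 69531207 to 69687351, the longest of the 5 at 156145 bp, and no other protein-coding gene touched its window. It had 6.25 control peaks per 100 kb, against 17.0 at Ikzf1, 10.8 at Ikzf4, 9.37 at Ikzf3 and 2.46 at Ikzf5. The peak at its high end had 912 and 952 reads, a ratio of 1.04 (0.952 to 1.14), and was the widest, 951 and 947 bp. The strongest site by fold enrichment, 26.2 in control and 23.0 in treatment, lay in the gene body at 69544396, with 876 and 696 reads.

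The weaker sites of Ikzf2 differed more. Of its 16 control peaks 5 were control-only, near the share of 29.2% among all control peaks. These had 37, 65, 85, 42 and 201 reads, and none had a treatment peak within 1 kb. Of all control peaks under 100 reads, 69.5% had no overlapping treatment peak. The strongest control-only peaks of Ikzf2 by fold enrichment were at 69592308 (5.68), 69555865 (4.36) and 69692122 (3.02). The site at 69496238, 34969 bp before the low end, had 156 and 53 reads, a ratio of 0.340 (0.244 to 0.467), the lowest at Ikzf2. Beyond the high end, the site at 69689157 had 492 and 293 reads, a ratio of 0.596 (0.514 to 0.690). The highest ratio, 1.33 (0.957 to 1.85), was at 69653644 with 67 and 89 reads, where the counting interval includes equality. The sites at 69513742 and 69638025, next by control fold enrichment (15.3 and 11.6), had 358 and 289, and 175 and 106 reads.

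Ikzf4 encodes Eos, a partner of Foxp3 in regulatory T cells. Its span is chromosome 10, 128630839 to 128669671, in a gene-dense window that touched Erbb3, Rps26, Suox, Rab5b, Pmel and Cdk2. Of its 15 control and 14 treatment peaks, 4 in each library lay in the gene or at its ends. The site at 128637202 had 741 and 878 reads, a ratio of 1.18 (1.07 to 1.31), the highest of the window. The other 3 had lower coverage in treatment. The site at 128645911 had 1301 and 840 reads, a ratio of 0.646 (0.591 to 0.705), that at 128664007 had 372 and 143, a ratio of 0.384 (0.315 to 0.467), and that at 128669022 had 175 and 84, a ratio of 0.480 (0.366 to 0.626). This last peak, 649 bp inside the high end of Ikzf4, was also within 1 kb of an end of Suox, so it cannot be given to either gene alone. Local background was lower in treatment at these 3 sites too, 86.2 and 56.1, 32.2 and 15.2, and 49.2 and 35.8 reads in the same order. Their fold enrichments were 14.9 and 14.7, 11.2 and 8.87, and 3.51 and 2.31. At 128637202 the background was higher in treatment, 57.6 and 64.8 reads, and the fold enrichments were 12.7 and 13.4.

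Most strong peaks of the Ikzf4 window belonged to its neighbours. A peak at ends of Rab5b, an endosomal GTPase, and Pmel, a melanosome protein, had 3051 and 2871 reads, the highest of all family windows. The end of Suox, sulfite oxidase, had 1136 and 1027, that of Cdk2, a cell cycle kinase, 1005 and 887, and that of Rps26, a ribosomal protein, 992 and 1136. The widest peaks were 1569 bp at Suox in control and 1417 bp in the body of Pmel in treatment, and the latter site had 1530 and 1759 reads. The end of Erbb3 had 520 and 355. Control-only peaks lay at 128625463 with 211 reads and at 128604145 with 52, and a treatment-only peak at 128620476 with 92 reads, all between the spans of Erbb3 and Ikzf4, the first of them inside Rps26.

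Ikzf5 encodes Pegasus. Its span is chromosome 7, 131388649 to 131410518, and it begins 83 bp from Acadsb, an acyl-CoA dehydrogenase gene, so the promoter printed above may serve either gene. The peak there had 1453 reads in each library, a ratio of 1 (0.929 to 1.08), with its summit on the same base, 77 bp before the annotated start. There was no other peak in the Ikzf5 span. The end of Pstk, a kinase of selenocysteine synthesis, had 1239 and 1081 reads, a ratio of 0.872 (0.803 to 0.947). The end of 2310057M21Rik had 1070 and 1077. Of the gene windows with a peak, 10.3% had fewer control peaks than this one.

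Each shared family peak overlapped exactly 1 peak of the other library, giving 71 pairs. Coverage was higher in treatment at 25, lower at 45 and equal at 1, so 35.2% were higher, against 14.9% of all pairs and 17.6% of gene-end pairs. The median log2 ratio was −0.21, and thus lower in treatment, but it was 0.29 above the median of all pairs and 0.06 above that of gene-end pairs, so its direction depends on the scaling. Relative to the median of all pairs, 51 of 71 were higher. At 0.5 times the control or less were 9 pairs, 12.7%, against 21.4% of all pairs, and at 2 times or more 2 pairs, 2.82%, against 0.917%, each of them at Ikzf3. The family's peaks were stronger than most, and these ratios were not set beside pairs of like strength. With only peaks of at least 100 reads, the median of all pairs was −0.43 and the family median was 0.22 above it. The 71 pairs include the flanks, with sites at neighbouring genes. Of the 42 pairs in the members' spans or at their ends 18 were higher in treatment, with a median log2 ratio of −0.17. Of the 29 flank pairs 7 were higher, with a median of −0.28.

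By gene, the median log2 ratio was −0.18 at Ikzf1 (29 pairs), −0.31 at Ikzf2 (11), −0.21 at Ikzf3 (15), −0.50 at Ikzf4 (13) and 0.00 at Ikzf5 (3). Relative to the median of all pairs, Ikzf4 was at 0.00 and the other 4 genes were above it. Of the windows with at least 10 pairs, 92.0% had a lower median than Ikzf1 and 89.2% a lower one than Ikzf3, against 78.0% for Ikzf2 and 46.3% for Ikzf4. Peaks share a locus and are no replicates, so no test was made between the genes. By place, the 17 pairs at gene ends had a median of −0.15, the 41 in gene bodies −0.23 and the 13 between genes −0.48. The widest range was in gene bodies, from −1.38 to 2.60, and both limits came from family genes, Ikzf4 and Ikzf3.

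**Figure D4:**
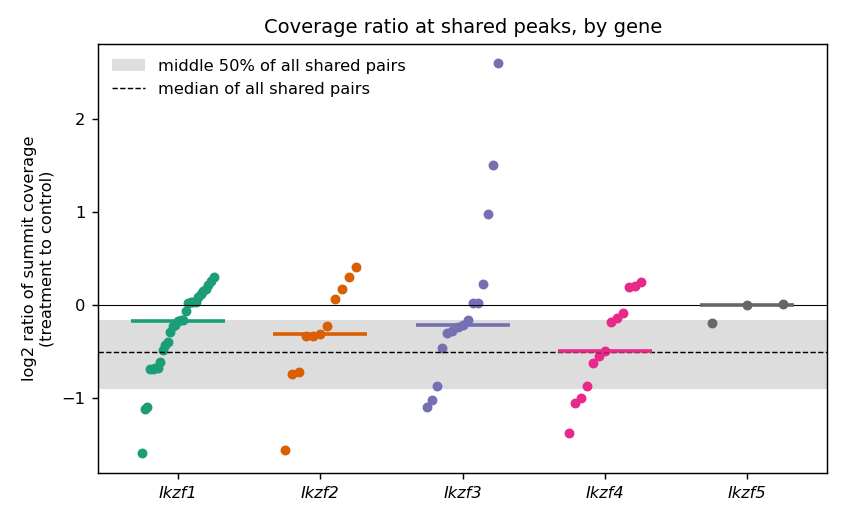
Log2 ratio of summit coverage, treatment to control (vertical axis), for each shared peak in the windows of the 5 genes (horizontal axis), sorted within a gene, with a bar at the gene's median. The grey band holds the middle 50% of all shared pairs and the dashed line their median of −0.50. Ikzf3 has the points farthest above 0, at 2.60, 1.50 and 0.98.

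**Figure D5:**
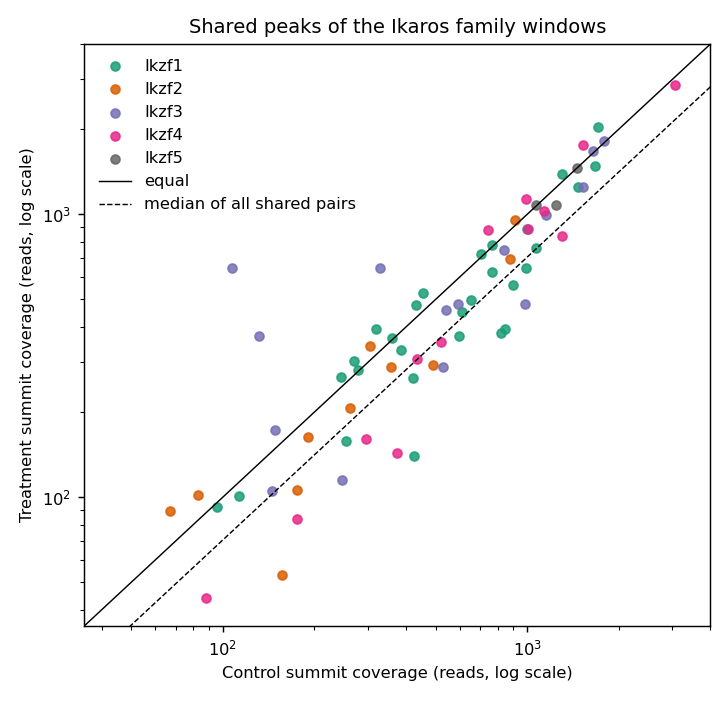
Treatment summit coverage against control summit coverage in reads, each on a log scale, for the 71 shared pairs coloured by gene. The solid line marks equal coverage and the dashed line the median of all shared pairs. The strongest pairs lie near the solid line, and 3 Ikzf3 pairs lie well above it, at 107 and 647, 131 and 371, and 328 and 645 reads.

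Widths and summit positions of the pairs were near those of all pairs. Treatment peaks were narrower at 51 of 71 pairs and wider at 20, where 78.1% of all pairs were narrower, with a median width ratio of 0.943, against 0.911 for all pairs. Summits were on the same base at 26 pairs, 36.6%, against 29.7% of all pairs, and more than 150 bp apart at 6 of 71, against 6.08% of all pairs. Those 6 were the second Ikzf1 start, the Ikzf1 site at 11696103 (193 bp), the site in Ddc (479 bp), the raised site and the low end of Ikzf3 (218 and 528 bp), and the Ikzf4 site at 128664007 (295 bp). The local background had a median log2 ratio of −0.05 at the family pairs and −0.16 at all pairs.

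Genes of the wider pathway were counted in windows of the same size. Over all gene windows with a peak 77.9% had fewer, 15.9% as many and 6.22% more. Of 20 genes for NuRD and related partners, 17 had fewer peaks in treatment, 3 as many and 0 more, with a summed ratio of 0.822 and a median ratio of 0.863, against a median of 0.800 over all windows. The largest deficits were at Mta3, a NuRD subunit, with 31 peaks in control against 22, and at Smarca4, the remodelling ATPase BRG1, with 25 against 16. In the same order Chd4, the remodelling ATPase of NuRD, had 18 and 16, and Hdac1, its deacetylase, 21 and 19. Of 5 genes of the cereblon ubiquitin ligase, through which drugs such as lenalidomide degrade Ikaros and Aiolos, 3 had fewer, 2 as many and 0 more. Crbn itself had 6 and 4. Of 20 T cell genes that Ikaros family factors are known to bind or regulate, 16 had fewer, 3 as many and 1 more, with a median ratio of 0.879. Cdk6, a cell cycle kinase, had the largest deficit, 45 and 32, and Il7r, the IL-7 receptor chain, was the gene with more, 11 and 15. Il2 had 7 and 6, Ifng 18 and 16, Notch1 15 and 15, and Il2ra 28 and 26. Windows of neighbours such as Cd8a and Cd8b1 share peaks.

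The genes most like each member in control peaks, treatment peaks and span, over these 2 libraries, were found by distance on a log2 scale. For Ikzf1 they were Znrf1 (30 and 30 peaks in control and treatment), Tbc1d16 (34 and 28) and Tgfbr2 (33 and 27), at distances of 0.106, 0.108 and 0.110. For Ikzf2 the nearest was Kif13b (15 and 11), at 0.0907, for Ikzf3 Mark3 (17 and 17), at 0.00532, and for Ikzf4 Adar (15 and 14), at 0.00571. For Ikzf5 they were Gm14391 and its own neighbours 2310057M21Rik and Pstk, each with 3 and 3, of which the last 2 share its peaks.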

How the data were processed

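ATAC-seq of mouse CD8+ T cells gave 2 libraries, 1 control and 1 treatment by title. Per the submitters' processing notes, the authors used cutadapt 2.5, Bowtie2 2.3, Picard 2.20 and MACS2 on build mm10. Their settings, read filters and transposase shift are not given in the sources used here. Each peak list was called per library. Its deposited columns are the authors' score, a −log10 q-value, a −log10 p-value and a fold enrichment, which is a ratio to local background.

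Only chromosomes 1 to 19, X and Y entered. Summit coverage and local background were solved from the deposited fold and −log10 p-value, to within 0.001, for 99.994% of control and 99.977% of treatment peaks. A fold here is (coverage + 1)/(background + 1). This was checked on simulated data. Whether duplicate reads were removed is unknown, so reads may not be independent molecules. Peaks sharing 1 bp counted as shared, and pairs are mutual best overlaps. Gene spans came from RefSeq (GRCm38.p6), with 21887 protein-coding genes. Peaks were named by a rule: those at gene ends or starts, the 3 of highest fold in each list, the 3 strongest single-library peaks, the widest, and the lowest and highest coverage ratios. Others, such as further Ikzf1, Ikzf3 and Ikzf4 sites, were named after their values were seen. Members and lists were chosen with earlier results of these data known. Planned zinc finger comparisons were not run, and 1 planned marker gene is not reported here. Python 3.11.15, numpy 2.4.6, scipy 1.17.1 and pandas 2.3.3 were used. With 1 library per group no test was made. Alternatives covered overlap, q-value, list length, window, placement, coverage and scaling.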

Additional observations from a re-analysis of the deposited data

How the results depend on the processing

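The alternatives were 10 planned settings, plus 2 scalings added after seeing the data. The median log2 ratio of coverage stayed below 0 under all 10 and turned positive after subtracting the median of all pairs (0.29) or of gene-end pairs (0.057). With summits within 150 bp, 87.8% of treatment peaks were overlapped, against 95.9%. With lists of equal length, 92.9% of control and 87.8% of treatment peaks were overlapped (83.3% and 83.9% of all peaks). Treatment minus control was then 3 at Ikzf1, 1 at Ikzf3, and 0 at Ikzf2, Ikzf4 and Ikzf5, so no gene had fewer peaks in treatment. Gene spans alone held 50 control and 44 treatment peaks, and windows of 100 kb held 130 control peaks. In those wider windows Ikzf3 had 7 fewer peaks in treatment, 27 against 34, and with minimum −log10 q-values of 5 and 10 it had 1 more. Fewer control peaks entered with lists of equal length, and the causes of the other shifts were not tested. Of 52 values over all 5 genes, 44 stayed within 1.5 times the count or the 95% interval of the reported value, 6 moved beyond it and 2 reversed. Some of those that stayed could not move. The overlap rule does not enter the peak counts, and lists of equal length leave the number of treatment peaks as it is. No paired analysis was possible because each group has 1 library. Of the 12 control-only peaks, 6 had under 100 reads.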

Other observations

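Beyond the windows, between 50 and 250 kb from each gene, the surroundings of the Ikaros family genes differed in density. On the low side of Ikzf5 no peak was found in either library, and on its high side 9 were found in control and 6 in treatment. The surroundings of Ikzf2 held 6 and 4 peaks on the low side and 8 and 7 on the high side. At Ikzf3 the counts were 25 and 18 on the low side, with 7 in control only and 0 in treatment only (29.2% and 6.8% over the whole lists), and 31 and 27 on the high side. Ikzf4 had 30 and 24 peaks on the low side and 20 and 21 on the high side, where 4 of 21 treatment peaks had no overlap in control, against 6.8% of all treatment peaks. Ikzf1 had 14 and 13, and 18 and 13. The strongest surrounding site of Ikzf1 in each library, on the low side, had 1911 reads in control and 1725 in treatment.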
